A study of Brassica napus with 6 samples.

Results

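Cytosolic translation initiation and elongation factors were examined in roots of oilseed rape (Brassica napus, cultivar Nourin No.16) after glutathione had been put on the leaves. The set comprised 47 genes of eIF1 to eIF6 and of the eEF1B and eEF2 subunits, given as Arabidopsis loci. Each gene was taken through the probe that the ATH1 platform annotation pairs with it alone, and where several such probes existed the one with the highest mean over all 6 arrays was to be used. This rule reached 15 of the 47 genes, each through 1 probe. A further 3 were reached by probes paired with several genes and were not read from those, and 29 were not analysed here. The 15 were the initiation factors eIF1 (3 genes), eIF1A (2), eIF2α (1), eIF3d (2), eIF4A (2), eIF5 (2) and eIF5B (1), and the elongation factor subunit eEF1Bα (2). The eIF5A, eIF6, eIF4B, eIF4E, eIF4G and eEF2 genes, and the remaining subunits of eIF2, eIF3 and eEF1B, contributed no values.

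In the first group of 3 arrays, reduced glutathione (GSH, the tripeptide thiol) had been brushed for 4 days at 100 mM, 50 µL per leaf, on 3 expanded leaves of each plant. In the second group of 3 arrays, the control, plants had been left untreated for the same 4 days. All plants were grown in nutrient solution to 4 weeks, and the labels call the arrays of a group biological replicates without giving the plants behind each. The labels describe no brushing of the controls, so GSH and the application of a solution to the leaves cannot be told apart.

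Eukaryotic translation starts when a small ribosomal subunit, loaded with initiator tRNA by the GTPase eIF2, is brought to the capped end of an mRNA and scans to the start codon. eIF1 and eIF1A keep the subunit able to scan, eIF3 is its large scaffold, and the helicase eIF4A opens mRNA structure. eIF5 stimulates GTP hydrolysis by eIF2, and eIF5B joins the large subunit. In elongation, eEF1B recharges the tRNA carrier eEF1A with GTP. Genes for this apparatus are active in every growing tissue, roots included, and these roles are those of eukaryotes in general, including Arabidopsis.

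The deposited values were almost the same on every array. On the log scale of the table, the quartiles of each of the 6 arrays were 5.67 and 6.06 around a median of 5.84. The median range of a probe over the arrays was 1.91 millionths of a unit. Values are therefore given as deviations from a probe's mean over the 6 arrays, and differences as GSH minus control, both in millionths of a unit. They cannot be read as fold changes, and sizes cannot be compared between probes, because the step that made the spread so narrow is not stated in the sources used here. When every probe was scaled to equal spread, a first principal component with 25.5% of the variance set GSH replicate 3 and control replicates 1 and 3 on one side and the other arrays on the opposite side, GSH replicate 1 farthest out. It therefore did not follow the groups. Of the markers of other tissues and cells, 2 of 9 for root cells and 2 of 6 for leaves were measured, and their signals cannot show which tissue was present, because levels of different probes are not comparable. The root hair expansin genes AT1G12560 and AT1G62980 differed by -27.3 (SE 20.8) and -2.12 (SE 5.12), and the leaf markers AT5G01530 and AT2G39730 by 0.28 (SE 0.187) and -0.0573 (SE 0.148). No cell division marker was measured, so a change in the share of dividing cells was not tested. In whole roots, fewer cells of a type and less RNA per cell cannot be told apart.

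Single translation factor genes were not told apart from the spread between arrays. By limma with Benjamini-Hochberg adjustment over 22746 probes, 0 of the 15 passed 0.05, where 0% of all probes did, and their adjusted p ran from 0.742 to 1. This does not show that the genes were unchanged. Before adjustment, 0 of 15 had a limma p below 0.05, beside 6.75% of all probes. The mean was lower after GSH for 8 of the 15 genes, 53.3%, beside 48.1% of all probes. The GSH and control arrays did not overlap for 3 of the 15, 20% beside 11.4% of all probes, with all GSH arrays below all controls for 2 genes (5.75% of all probes) and above for 1 (5.63%). The median moderated t, the difference divided by its standard error, was -0.364 for the 15 genes and 0.0472 for all probes. Leaving out GSH replicate 3 gave 3 genes under the unadjusted level, beside 7.69% of all probes in that fit, and leaving out GSH replicate 1 gave 2, beside 7.02%. Leaving out control replicate 1 gave 1, beside 5.75%. The median t was 0.0602 without GSH replicate 1 and -0.731 without GSH replicate 2. Centring each array on its median left 6 of 15 lower, and centring on the median of bright probes made it 12 of 15, so the split of directions depends on the level given to each array. With the bright-probe level the groups did not overlap for 2 genes, AT5G35680 and AT5G19510, beside 3.17% of all probes. AT5G54940, AT2G40290 and AT1G54270, whose groups were apart in the main fit, overlapped at that level. Which genes were apart therefore also depends on the array level. With 3 arrays against 3, an exact two-sided permutation test of a single gene cannot give a p below 0.1.

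**Figure D1:**
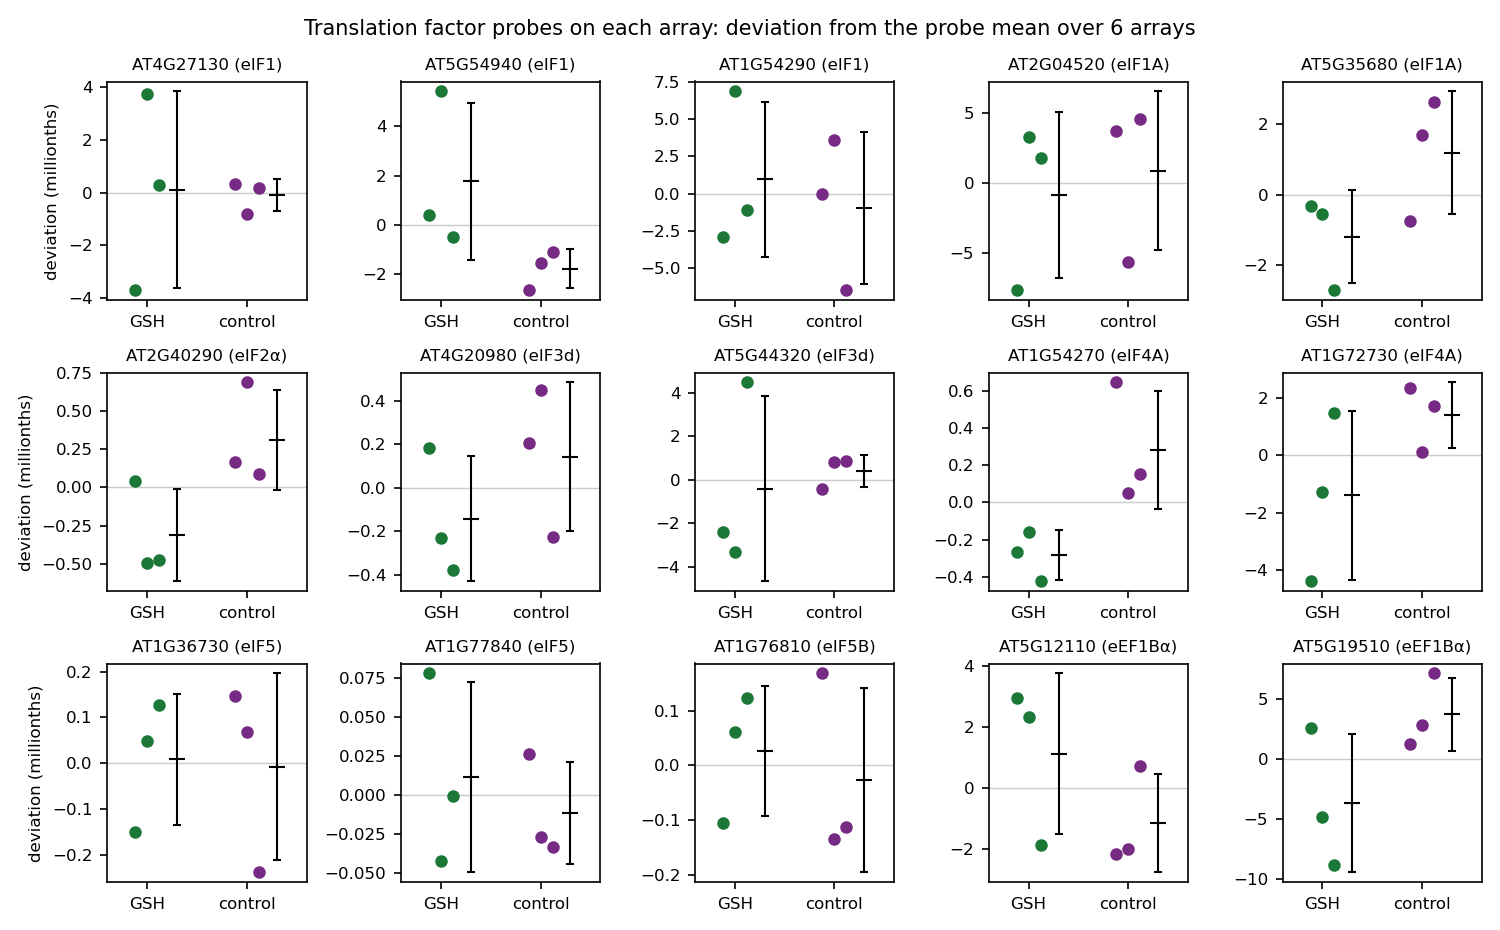
Each panel plots 1 translation factor gene, with the 3 GSH arrays on the left and the 3 control arrays on the right, as deviations from the probe's mean over the 6 arrays in millionths of a log unit; bars give the mean ± SD (n = 3), and the vertical scale differs between panels. The groups are apart for AT5G54940, AT2G40290 and AT1G54270 and overlap for the other 12 genes.

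Among the factors that hold the scanning ribosome open, all 3 eIF1 genes had a higher mean after GSH and both eIF1A genes a lower mean. None passed the test, the eIF1 and eIF1A genes were not tested against each other, and 3 of these 5 signs turned when single arrays were left out. The eIF1 gene AT5G54940 lay at 0.396, 5.42 and -0.484 millionths on the GSH arrays, against -2.67, -1.55 and -1.12 on the control arrays. All GSH arrays were therefore above all controls, but GSH replicate 2 stood far above the other two, and the difference was 3.56 (SE 1.73, limma adjusted p = 0.823). Without single arrays it ran from 1.73 to 4.69, the low end being without GSH replicate 2. The eIF1 gene AT4G27130 lay at -3.72, 3.74 and 0.28 on the GSH arrays, against 0.327, -0.802 and 0.17 on the controls. The GSH arrays thus enclosed the controls on both sides, and the difference was 0.204 (SE 1.99, limma adjusted p = 1). AT1G54290, the third eIF1 gene, had a difference of 1.93 (SE 3.82). GSH replicate 2 was the highest of the 6 arrays for all 3 eIF1 genes, as it was for 15.3% of all probes. Without it the signs of AT4G27130 and AT1G54290 turned, and AT1G54290 was also at -0.829 without control replicate 3.

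Of the eIF1A genes, AT5G35680 had the smaller p. It lay at -0.325, -0.543 and -2.72 on the GSH arrays, against -0.743, 1.70 and 2.63 on the controls. Control replicate 1 fell among the GSH arrays, so the groups overlapped, and the difference was -2.39 (SE 1.16, limma adjusted p = 0.818). Leaving out that control replicate brought the unadjusted limma p to 0.0252, with an adjusted p of 0.814. The other eIF1A gene, AT2G04520, ranged over 11.0 millionths among the GSH arrays and 10.3 among the controls. Its difference of -1.76 (SE 4.34) was small beside that spread and turned to 1.65 without GSH replicate 1 and to 0.105 without control replicate 3.

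The α subunit of eIF2 is the subunit that the kinase GCN2 phosphorylates when amino acids run short. Its measured gene, AT2G40290, lay at 0.0388, -0.497 and -0.478 on the GSH arrays, against 0.163, 0.687 and 0.0868 on the controls. All GSH arrays were below all controls, the nearest pair, GSH replicate 1 and control replicate 3, being close together. The group means were -0.312 ± 0.304 after GSH and 0.312 ± 0.327 in controls (SD, n = 3 each), and the difference was -0.624 (SE 0.264, limma adjusted p = 0.773). Leaving out single arrays kept it between -0.80 and -0.437. Its unadjusted limma p was 0.0663, and 0.315 with a trended and robust variance. The shift of 0.598 that median-centring adds to every difference is nearly as large as this value, and with it the groups overlapped.

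Both measured genes of eIF3d, a subunit of eIF3 that can bind the mRNA cap in human cells, overlapped between the groups. AT4G20980 lay at 0.181, -0.232 and -0.377 on the GSH arrays, against 0.205, 0.449 and -0.226 on the controls. The difference was -0.285 (SE 0.265, limma adjusted p = 0.968). The shift of 0.598 from median-centring, larger than this difference, made it 0.313. It was -0.132 without control replicate 2 and -0.469 without control replicate 3. AT5G44320 differed by -0.83 (SE 2.28). Its 3 controls lay within 1.30 millionths of each other while the GSH arrays ranged over 7.83, because GSH replicate 3 was the highest array and the other GSH arrays were the lowest. Without GSH replicate 3 its difference was -3.28, with an unadjusted limma p of 0.00596 and an adjusted p of 0.476. Its sign turned without either of the other GSH arrays, to 0.158 without GSH replicate 1 and 0.633 without GSH replicate 2.

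The 2 measured eIF4A helicase genes both had a lower mean after GSH. AT1G54270, annotated as EIF4A-2, had the smallest unadjusted p of the 15 genes, 0.051 by limma, though with a trended and robust variance it was 0.451. It lay at -0.266, -0.156 and -0.424 on the GSH arrays, against 0.644, 0.0502 and 0.151 on the controls. All GSH arrays were below all controls, and control replicate 1 was the array farthest from the rest. The means were -0.282 ± 0.135 after GSH and 0.282 ± 0.318 in controls (SD, n = 3 each), with a difference of -0.564 (SE 0.218, limma adjusted p = 0.742). Its 95% interval ran from -1.13 to 0.00362. Median-centring adds 0.598 to every difference, more than the size of this one, so the turn to 0.0342 was fixed by that shift. Its direction therefore cannot be separated from the level each array is given. AT1G72730 differed by -2.78 (SE 1.66), with GSH replicate 1 lowest, and the groups overlapped. It was -4.22 without GSH replicate 3, with an unadjusted limma p of 0.0327 and an adjusted p of 0.582. Without GSH replicate 1 it was -1.28, with an unadjusted limma p of 0.343.

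The genes for eIF5 and eIF5B, which act at start codon recognition and subunit joining, overlapped between the groups over the 6 arrays. The whole range over 6 arrays was 0.386 millionths for the eIF5 gene AT1G36730, 0.121 for the eIF5 gene AT1G77840 and 0.302 for the eIF5B gene AT1G76810. These ranges cannot be set against those of other probes. AT1G76810 lay at -0.106, 0.0615 and 0.124 on the GSH arrays, against 0.168, -0.135 and -0.113 on the controls. The groups overlapped, and the difference was 0.053 (SE 0.163, limma adjusted p = 1). AT1G36730 lay at -0.151, 0.0488 and 0.127 on the GSH arrays, against 0.147, 0.0678 and -0.239 on the controls, and had the largest p of the 15 genes. Its difference was 0.0163 (SE 0.179, limma adjusted p = 1), with a 95% interval from -0.448 to 0.481. AT1G77840 differed by 0.023 (SE 0.127). All 3 differences were below their standard errors, which limma moderates with the spread of other probes. Each turned sign when 1 array was left out. Letting bright probes set the array level moves every difference by -1.55, more than the whole range of these probes. Their lower sign in that setting was therefore fixed by the shift and shows nothing about the genes.

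The eEF1Bα genes encode a subunit that exchanges the nucleotide on eEF1A, and the 2 measured paralogues lay on opposite sides. AT5G19510, whose probe had the highest mean signal of the 15, 7.90, lay at 2.53, -4.81 and -8.81 on the GSH arrays, against 1.21, 2.79 and 7.09 on the controls. GSH replicate 1 fell among the controls, so the groups overlapped. The means were -3.70 ± 5.75 after GSH and 3.70 ± 3.04 in controls (SD, n = 3 each), and the difference was -7.39 (SE 3.42, limma adjusted p = 0.802). Without GSH replicate 1 it was -10.5, with an unadjusted limma p of 0.013 and an adjusted p of 0.586, and without GSH replicate 3 it was -4.84, with an unadjusted limma p of 0.202. AT5G12110 had a higher mean after GSH, by 2.27 (SE 1.62, limma adjusted p = 0.926), with a 95% interval from -1.94 to 6.48. Here GSH replicates 1 and 2 were the highest arrays and GSH replicate 3 lay among the controls. Its difference was 3.77 without GSH replicate 3, with an unadjusted limma p of 0.0282 and an adjusted p of 0.565. Without GSH replicate 1 it was 1.36. The difference between the paralogues was not tested.

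**Figure D2:**
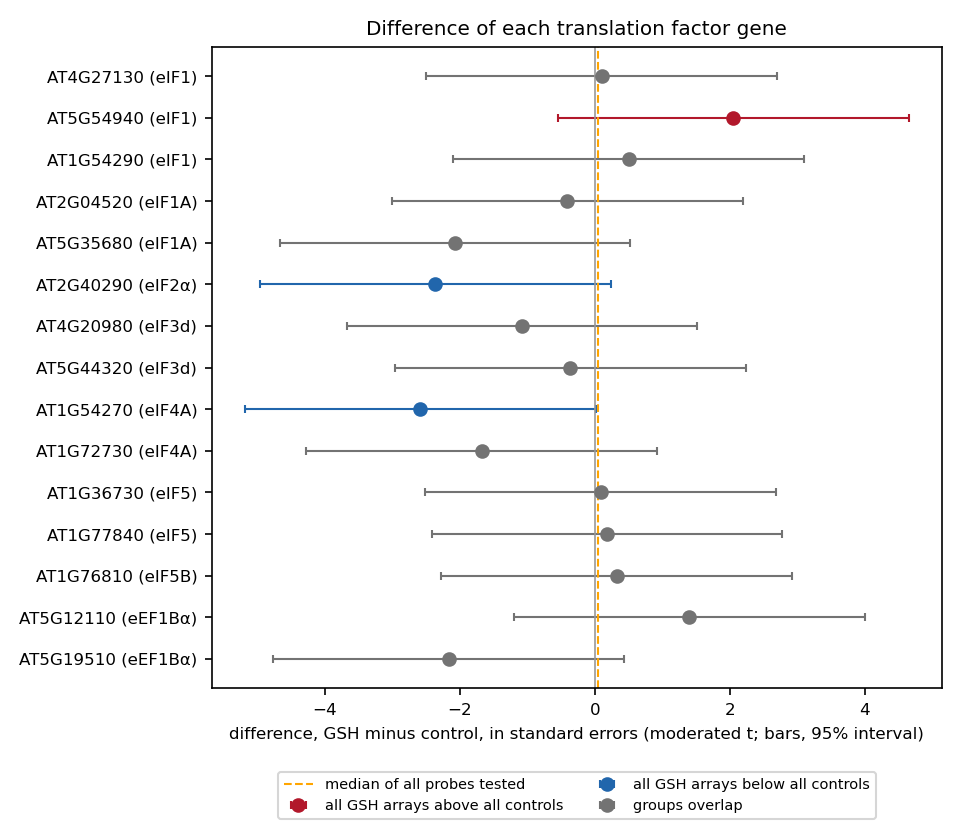
Each row gives the difference of 1 gene, GSH minus control, in units of its standard error (moderated t) with its 95% interval; colours mark whether the groups overlap, and the dashed line is the median of all probes, 0.0472. All 15 intervals include 0, and that of the eIF4A gene AT1G54270 ends just above it.

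Across the set, control arrays held the highest value for 9 of 15 genes, 60%, beside 46.5% of all probes. GSH arrays held the lowest value for 10 of 15, 66.7%, beside 51% of all probes. The GSH arrays ranged more widely than the controls for 8 of 15 genes, 53.3%, beside 53.9% of all probes. No array was high or low across the whole set, as control replicate 1, the most often above a gene's mean, was so for 10 of 15 genes.

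**Figure D3:**
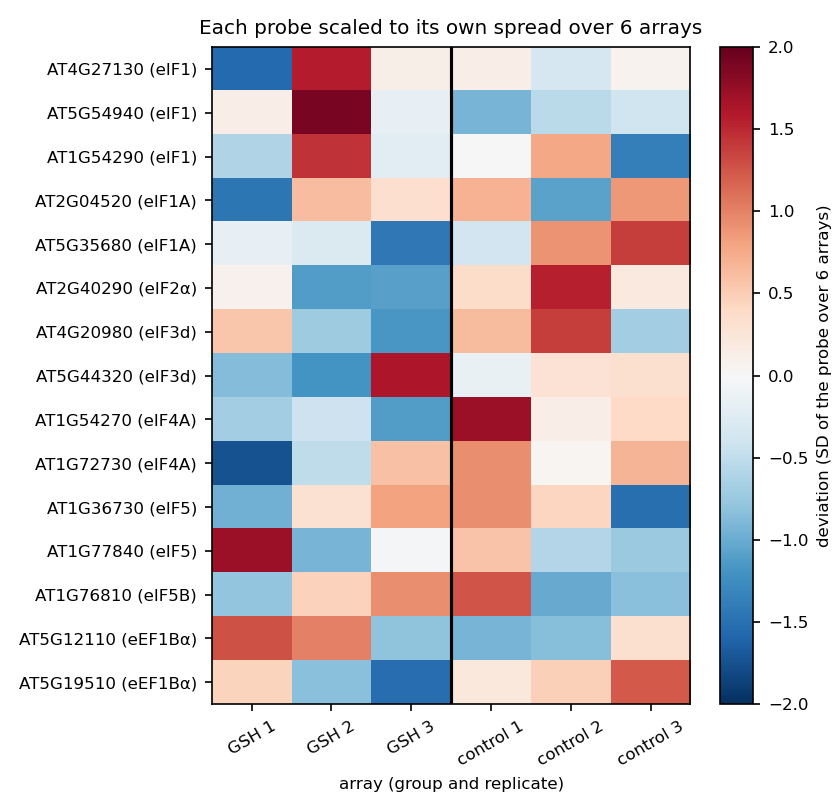
Rows are the 15 genes and columns the 3 GSH and 3 control arrays; colour gives the deviation from the gene's mean in units of its SD over the 6 arrays. GSH replicate 2 is the highest array in the 3 eIF1 rows, and no column has 1 colour throughout.

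The probes of the set were brighter than most, and a lower mean after GSH was more frequent above the 95th percentile of mean signal than below it. Of the 15 probes, 6 lay above the 95th percentile of mean signal and 3 lay under the lower quartile, those of AT1G72730, AT1G36730 and AT1G76810. Whether such dim probes report rape transcripts was not tested. The mean was lower after GSH for 5 of the 6 bright genes, the exception being the eIF1 gene AT1G54290, beside 58.3% of the 1138 probes of that brightness. Among the remaining genes it was lower for 3 of 9, beside 47.5% of the other 21608 probes. Both genes with all GSH arrays below all controls were in the bright class, where 22.5% of all probes showed that pattern. The median t was -1.28 for the 6 bright genes and -0.467 for all probes of that brightness. This division by signal was chosen after the values were seen, and the part of signal level in the differences was not tested.

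**Figure D4:**
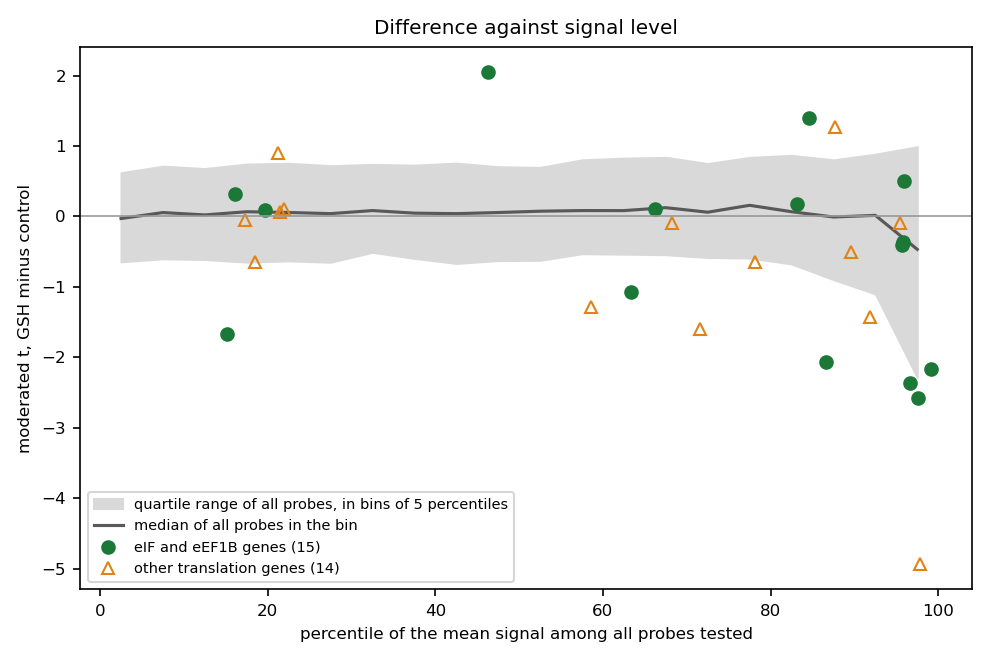
Moderated t, GSH minus control, is plotted against the percentile of a probe's mean signal for the 15 eIF and eEF1B genes (filled circles) and 14 other translation genes (open triangles); the line and band give the median and quartiles of all probes in bins of 5 percentiles. The median of all probes stays near 0 up to the 95th percentile and is -0.467 above it.

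Other genes of cytosolic translation likewise gave no call. Of a list of 35, covering eEF1A, cap-complex isoforms, poly(A)-binding proteins, eIF2B, release and recycling factors and the enzymes that modify eIF5A, 6 were measured. By limma 0 of 6 passed, beside 0% of all probes, and 3 had a lower mean, beside 48.1% of all probes. The groups overlapped for all 6, and they did not for only 11.4% of all probes. The median t was 0.0022. The release factor eRF3 gene AT1G18070 differed by -1.43 (SE 0.995, limma adjusted p = 0.92). AT3G58180, for the hydroxylase that completes hypusine on eIF5A, differed by 0.527 (SE 0.413). The eIF2B gene with the smallest p, AT2G34970, differed by 0.062 (SE 0.556). eIF2B is the exchange factor that restores eIF2 to its GTP form. In the list of 7 TOR and GCN2 pathway genes, which adjust translation to nutrients, 2 were measured. These were RAPTOR1 (AT3G08850) and RAPTOR2 (AT5G01770), for scaffold proteins of the TOR kinase complex, at -0.592 (SE 0.911) and -0.0853 (SE 0.862).

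Translation factors of the organelles included the lowest p of any translation gene listed. Of 12 genes, 6 were measured, and 0 passed the limma threshold, beside 0% of all probes. A lower mean was seen for 5, beside 48.1% of all probes, and the median t was -0.967 beside 0.0472. AT4G02930, the mitochondrial elongation factor Tu, lay at -13.7, -38.8 and -12.7 on the GSH arrays, against 29.8, 21.2 and 14.2 on the controls. All GSH arrays were below all controls, by a difference of -43.5 (SE 8.81, limma adjusted p = 0.525). The unadjusted limma p was 0.00476. Its probe lay at percentile 97.9 of mean signal. Of the 1138 probes above the 95th percentile, 22.5% had all GSH arrays below all controls. In that class 243 had a lower mean at an unadjusted limma p below 0.05. AT4G02930 passed when bright probes set the array level (limma adjusted p = 0.029), a setting that called 63 of 22746 probes, 52 of them lower. In the other settings, quantile normalization included, its adjusted p ran from 0.238 to 0.989. Its partner, the mitochondrial elongation factor Ts gene AT4G11120, differed by -0.881 (SE 0.552), and the mitochondrial initiation factor IF2 gene AT4G11160 by -0.238 (SE 0.185), both with overlapping groups.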

How the data were processed

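Root RNA was labelled as biotinylated cRNA and measured on 6 single-colour arrays, per the labels' protocols. The authors deposited one table of log values, taken as log2 from their range of 5.09 to 12.9. How signals were background-corrected, summarised and normalized, and in which log base, is not given in the sources used here. The submitters' processing notes name R 2.7.2. The values were used as deposited. Of 22810 probes, 64 array controls were left out and 22746 tested, of which 13513 are paired with 1 gene, 503 with several and 8730 are unnamed here. The probes are Arabidopsis sequences, so rape family members can share or lose signal. The GSH and control groups were fitted in limma 3.58.1 (R 4.3.3) with lmFit and eBayes, whose prior had 0.83 degrees of freedom, and p-values were adjusted over all probes by Benjamini-Hochberg at 0.05. Each SE is the difference divided by its moderated t, so the spread of other probes enters it. No dim-probe filter was used. Counting depth does not apply to arrays; their number limits the precision.

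The members and the other gene lists were chosen with earlier results of these data known, so no list was tested. Every measured member is named; values per array are given for the smallest p in each class, the 2 largest p and genes singled out. Of each other list up to 3 genes with the smallest p are named. Alternatives were other array levels, a replicate block, a limit to brighter probes, single arrays left out, other variance models and rescaled probes. The steps were tested on simulated data. When the simulated spread differed between probes as on the real arrays, most added shifts were not called at any size tried. When all probes were given the same spread, most of the larger shifts were called but few of the smallest. An absence of calls therefore says little about whether a gene changed.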

Additional observations from a re-analysis of the deposited data

How the results depend on the processing

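No measured translation factor gene passed a limma adjusted p of 0.05 under any setting that gave values, at 0.10, or in an unequal-variance test per probe. Quantile normalization gave no value, because none of the 15 probes still varied after it. Of the 135 differences recomputed under settings that could turn a sign (array levels, array weights and single arrays left out), 116 kept it and 19 turned, in 9 genes. Median-centred arrays shifted each difference by 0.598. Median-centring left 1 of the 15 genes without overlap between the groups, AT5G54940, beside 9.94% of all probes. The median t was 0.363 for the 15 genes and 0.877 for all probes. AT4G20980 then stood at 0.313 and AT1G54270 at 0.0342. Centring on the median of bright probes moved every difference by -1.55. The median t became -0.711, beside -0.687 for all probes, 1 gene, AT5G19510, was under an unadjusted p of 0.05 beside 3.17% of all probes, and 1 other listed gene, AT4G02930, was among 63 probes called, 52 lower and 11 higher. The differences became -1.35 for AT4G27130, -1.54 for AT1G36730, -1.53 for AT1G77840 and -1.50 for AT1G76810. For AT1G36730, AT1G77840 and AT1G76810 that shift exceeded the probe's whole range over the arrays, so it fixed their sign. Array weights put 1 gene, AT1G54270, under the unadjusted level, beside 7.03% of all probes, while a trended and robust variance gave it an unadjusted limma p of 0.451.

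Without single arrays the median t ran from -0.731 (without GSH replicate 2) to 0.0602 (without GSH replicate 1). The count under an unadjusted p of 0.05 ran from 0 to 3, with 3 without GSH replicate 3, 2 without GSH replicate 1 and 1 without control replicate 1. The count without overlap ran from 3 to 6, where fewer arrays overlap less easily by construction. Over all probes that share ran from 19.9% without control replicate 1, where 6 of the 15 genes did not overlap, to 23.2% without GSH replicate 3, where 6 also did not. Differences ran from -1.62 to 2.11 for AT4G27130, -1.02 to 4.21 for AT1G54290, -5.04 to 1.65 for AT2G04520, -3.28 to 0.633 for AT5G44320, -0.0992 to 0.096 for AT1G36730, -0.0103 to 0.0502 for AT1G77840 and -0.001 to 0.15 for AT1G76810. Where no cause is given here, the cause was not tested.

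With the replicate number as a block, 0 of the 15 genes were called, beside 1 of 22746 probes. In that fit 8 of the 15 were lower and the median t was -0.354. Deviations from the group means of arrays sharing a number correlated at -0.0214, -0.0156 and 0.0992. Of the 6 arrays, 2 correlated best with their own number. The main fit used no block because the labels do not say that the numbers pair the arrays.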
